A study of Mus musculus with 6 samples.

Results

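Neurotrophin and GDNF family genes were examined on arrays of PICs and satellite cells from young mouse muscle. The 9 genes chosen were the ligand genes Bdnf, Ntf3 and Gdnf and the receptor genes Ngfr, Ntrk2, Ntrk3, Gfra1, Gfra2 and Ret. Members are the probe sets whose only gene symbol on the platform is 1 of these 9. The choice gave 32 probe sets for 8 genes, out of 34945 probe sets with 1 gene symbol and 45037 probe sets in all. Ntf3 was not analysed here.

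PICs lie between the fibres of muscle and are named for PW1, the protein made from Peg3, while satellite cells lie under the fibre's basal lamina and regenerate it. The submitters obtained both from hindlimb muscle of mice of the strain C57 black 6 at an age of 7 to 9 days, using a sort on CD34 and Sca1. The labels name no treatment or mutation. There were 3 arrays of PICs and 3 of satellite cells (SAT in the labels), called biological replicates, each an Affymetrix array hybridised with cRNA made from 200 ng of total RNA. The labels do not say whether animals were pooled for a sample, and p-values measure the spread between these samples only.

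Neurotrophins are secreted growth factors of the nervous system that are also made outside it. Mature BDNF binds the receptor tyrosine kinase TrkB, encoded by Ntrk2, and neurotrophin 3 binds TrkC, encoded by Ntrk3. The p75 receptor, encoded by Ngfr, binds all neurotrophins and their uncleaved precursors. GDNF acts through the receptor tyrosine kinase RET, which needs a co-receptor anchored in the membrane, GFRA1 for GDNF and GFRA2 for its relative neurturin. In muscle these ligands are best known as survival and branching signals for motor and sensory neurons, and p75 also marks Schwann cells and several mesenchymal cells.

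Values are GCRMA intensities, given on the linear scale as deposited or as log2. The median intensity was 10 on every array, and 44.7% to 45.5% of probe sets lay above 16, which is a log2 value of 4 and is called the low value level here. Pearson correlations of log2 values were 0.954 to 0.987 between arrays of 1 population and 0.821 to 0.8665 across populations. All 7 listed myogenic markers were lower in PICs and all 7 interstitial mesenchymal markers were higher. Pax7, a transcription factor that defines satellite cells, averaged 6.89 ± 0.86 in PICs, against 11.68 ± 0.09 in satellite cells (log2, SD, n = 3 each). Myod1 differed by -5.84 (PICs minus satellite cells, log2), and the interstitial genes Pdgfra and Dcn by 3.92 and 2.09. Cd34 was 3.79-fold higher in PICs, Peg3 differed by 0.19 (limma, adjusted p = 0.171), and Ly6a, the gene of Sca1, was not analysed here.

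Of the 32 member probe sets, 10 passed the filter on low values, which asks for a log2 value above 4 on at least 3 of the 6 arrays. These 10 covered the 6 receptor genes. A probe set was called when the adjusted p of limma, a linear model fitted over all tested probe sets, was under 0.05 and the log2 difference was at least 1. By this rule 4 member probe sets, of Ngfr, Ntrk2 (2 probe sets) and Ntrk3, were higher in PICs and 0 were lower. Over all 18433 probe sets tested 15.1% were called higher in PICs and 12.8% lower, 27.9% in all. By gene, 3 of the 6 were called, each higher in PICs, against 16.6% of 10854 genes higher and 13.0% lower (29.6% together). In the fit without the filter, where each of the 32 probe sets is tested, the 4 were again called higher in PICs, against 7.16% of 34945 probe sets higher and 6.10% lower (13.3% together). The arrays of the 2 populations did not overlap in 7 of the 10 that passed the filter, against 59.9% of probe sets. Over all 32 they did not overlap in 9, against 33.3%. Less RNA of a gene per cell and fewer cells that carry it cannot be told apart in such bulk samples.

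**Figure D1:**
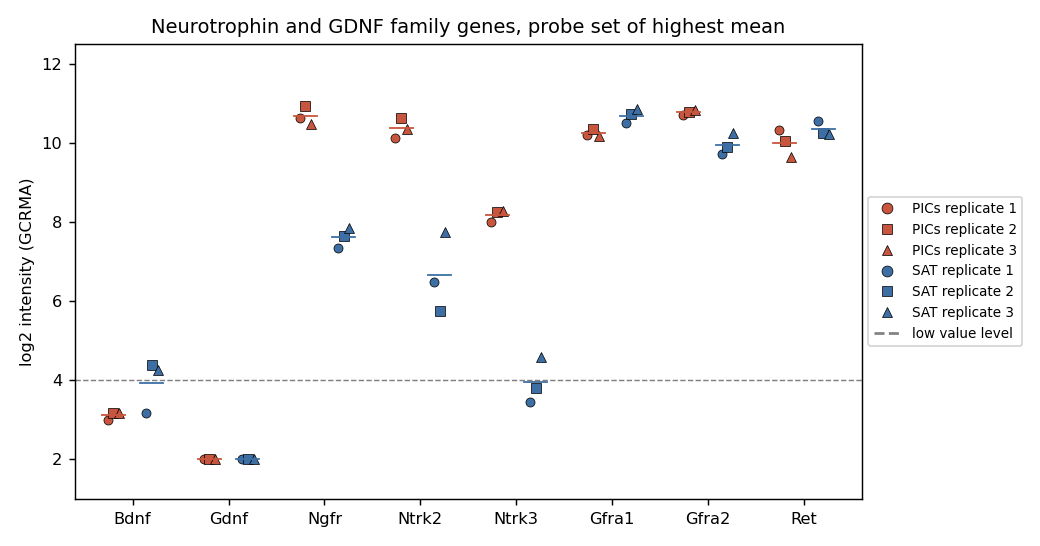
Log2 GCRMA intensity of each member gene's probe set of highest mean, with 1 point per array (shape gives the replicate number), PICs left and satellite cells (SAT) right, bars at the means and a dashed line at the low value level of 4. Ngfr, Ntrk2 and Ntrk3 stand apart between the populations, the means of Gfra1, Gfra2 and Ret differ by less than 1, and Gdnf reads 2 on this scale on every array.

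Among the neurotrophin receptors, Ngfr, Ntrk2 and Ntrk3 were all higher in PICs, by 8.43-fold, 13.1-fold and 18.7-fold on the probe set of highest mean. Ngfr, whose product p75 is a member of the tumour necrosis factor receptor superfamily, read 1593, 1963 and 1429 on the PIC arrays, against 163, 200 and 229 on the satellite arrays. The 3 PIC arrays all lay far above the 3 satellite arrays, and the satellite arrays were above the low value level. The log2 difference of Ngfr was 3.08 with a standard error of 0.18 and a 95% interval of 2.63 to 3.53 (limma, adjusted p = 0.000142). This rested on 1 of its 3 probe sets (1454903_at). The other two, 1450177_at and 1421241_at, read 5 and 4 on each of the 6 arrays.

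Ntrk2 encodes TrkB, the receptor of BDNF, which exists as a full kinase form and as truncated forms without the kinase. Its probe set 1420838_at read 1110, 1589 and 1308 on the PIC arrays, against 89, 54 and 215 on the satellite arrays. All PIC arrays were above all satellite arrays, and satellite replicate 3 was the highest of its group. The log2 difference was 3.71 (95% interval 2.50 to 4.91; limma, adjusted p = 0.00145). The probe set 1435196_at read 1092, 1330 and 544 on the PIC arrays, against 47, 21 and 80 on the satellite arrays. Here PIC replicate 3 was lower than the other PIC arrays, and the populations again did not overlap. It differed by 4.43, a 21.5-fold change (limma, adjusted p = 0.00118), which was 38.4-fold without both arrays numbered 3 and 12.6-fold without both numbered 2. Leaving out both numbered 2 also lowered the fold of 1420838_at, to 8.71. With array weights the log2 differences were 4.60 for 1420838_at and 5.64 for 1435196_at.

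Ntrk3 encodes TrkC, the receptor of neurotrophin 3. Its probe set 1433825_at read 254, 307 and 309 on the PIC arrays, against 11, 14 and 24 on the satellite arrays. Only satellite replicate 3 exceeded the low value level of 16, so the size of the fold is uncertain, and with log2(value + 16) it was 9.56-fold. The fitted log2 difference was 4.22 (95% interval 3.51 to 4.94; limma, adjusted p = 0.000191), and the PIC mean lay 4.17 above the low value level. Leaving out any single array kept Ngfr at 7.70-fold to 9.12-fold, Ntrk3 at 15.8-fold to 23.3-fold, and the 2 called Ntrk2 probe sets at 9.55-fold to 19.1-fold and 15.1-fold to 29.4-fold.

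The 250 bases before the annotated start are printed for Ngfr and Ntrk2, which were higher in PICs, and for Gfra1, which was not called. Each of these has 1 start in the table used. Promoter entries were found for 6 of the 9 genes, in RefSeq on the GRCm38.p6 build, and are written 5′ to 3′ on the strand of the gene. Capitals mark the GC box, GGGCGG or its reverse complement.
Ngfr, chr11:95587699-95587948, minus strand: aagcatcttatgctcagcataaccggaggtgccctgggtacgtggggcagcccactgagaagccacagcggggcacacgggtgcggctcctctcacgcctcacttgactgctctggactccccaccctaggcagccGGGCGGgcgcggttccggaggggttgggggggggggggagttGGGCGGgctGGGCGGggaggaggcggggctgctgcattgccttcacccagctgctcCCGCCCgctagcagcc
Ntrk2, chr13:58806319-58806568, plus strand: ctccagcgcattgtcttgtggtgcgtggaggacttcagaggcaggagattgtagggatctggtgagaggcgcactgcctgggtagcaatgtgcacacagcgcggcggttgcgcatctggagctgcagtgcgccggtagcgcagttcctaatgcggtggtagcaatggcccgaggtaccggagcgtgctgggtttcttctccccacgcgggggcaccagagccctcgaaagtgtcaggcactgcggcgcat
Gfra1, chr19:58455399-58455648, minus strand: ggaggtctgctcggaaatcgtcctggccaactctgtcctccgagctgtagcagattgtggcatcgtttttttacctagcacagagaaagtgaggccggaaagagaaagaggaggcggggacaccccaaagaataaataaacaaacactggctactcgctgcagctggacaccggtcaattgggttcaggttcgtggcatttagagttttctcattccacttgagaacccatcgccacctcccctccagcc
The Ngfr window held 4 GC boxes and the Ntrk2 and Gfra1 windows 0, where 32.7% of 32851 windows of this length in the table held at least 1. Its GC content was 70.4%, against 62.8% for Ntrk2, 52.4% for Gfra1 and a median of 52.4%. TATAAA, found in 12.4% of windows on either strand, was in none of the 3. The letters CCAAT, found in 33.8% of windows, were in the Gfra1 window (1 match). The E-box letters CANNTG, found in 66.2% of windows, had 2 matches in Ngfr, 1 in Ntrk2 and 3 in Gfra1. Both strands were searched and different motifs were counted separately, also where they overlap. These matches describe letters and are not evidence of binding.

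Most probe sets of the Trk receptor genes were at the low value level. Of 8 Ntrk2 probe sets 5 were at or under 16 on all 6 arrays, as were 4 of 8 Ntrk3 probe sets. A few reached above it on PIC arrays only. The Ntrk2 probe set 1420837_at read 26, 33 and 4 on the PIC arrays, against 4 on each satellite array. The Ntrk3 probe set 1422329_a_at read 51, 69 and 13 on the PIC arrays, against 6 on each satellite array, at least 2.24-fold higher in PICs. It did not pass without the filter (limma, adjusted p = 0.077). For 1455917_at the PIC arrays read 23, 33 and 8, against 5, 6 and 6 on the satellite arrays, and for 1425071_s_at 15, 59 and 10, against 10 on each satellite array. In each of these 4 the arrays above 16 were PIC replicates 1 or 2, and none was PIC replicate 3. The platform table does not say which transcript forms each probe set covers, so full and truncated Trk forms were not told apart.

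**Figure D2:**
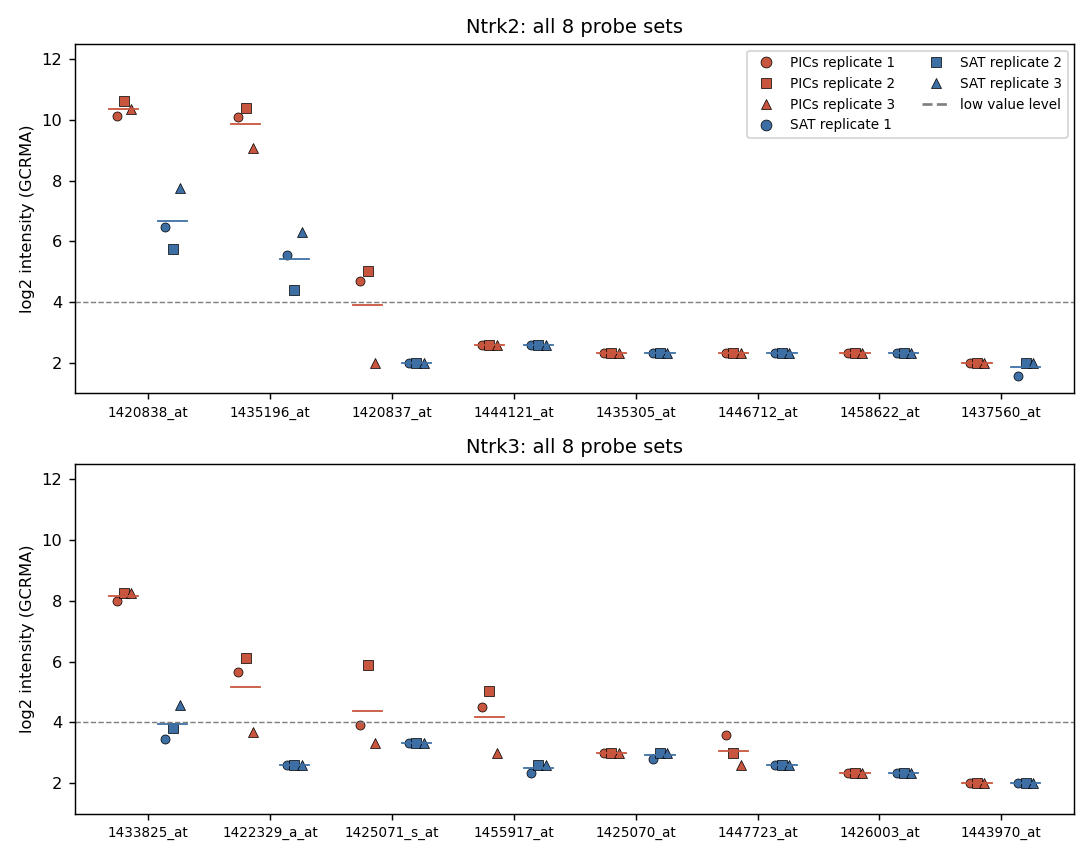
Log2 GCRMA intensity of all 8 probe sets of Ntrk2 (top) and of Ntrk3 (bottom), drawn as in the plot of the member genes, in order of mean level. The leading probe sets hold PIC replicate 3 near the other PIC arrays (1420838_at and 1433825_at), while it lies lower on 1435196_at, 1420837_at, 1422329_a_at and 1455917_at.

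PIC replicate 3 differed from the other PIC arrays in part of the family and not in the rest. On the log2 scale it lay below the mean of PIC replicates 1 and 2 by a difference of -1.15 on the Ntrk2 probe set 1435196_at and of -1.26 on the Ret probe set 1421359_at. The same difference was -0.02 on Ntrk2 1420838_at, 0.15 on Ntrk3 1433825_at and -0.31 on Ngfr. Over all probe sets tested its median was 0.03, with 90% of them between -1.20 and 0.69. Endothelial markers had a median of -1.94 (7 genes), tenocyte markers -1.07 (3 genes) and pericyte and smooth muscle markers -1.04 (8 genes). It was -0.80 for myogenic, -0.66 for Schwann and glial, -0.62 for leukocyte, -0.06 for interstitial mesenchymal, 0.29 for muscle fibre and 0.32 for perineurial markers. For the 14 member probe sets above 16 on a PIC array the median was -0.42, which is not a like comparison. They include Ntrk2 1420837_at and Ntrk3 1422329_a_at, 1455917_at and 1425071_s_at (-2.87 to -1.57), which did not pass the filter. Those were taken in only because PIC replicate 1 or 2 exceeded 16, while the marker lists hold genes that passed. The part of these markers in the member values was not tested.

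None of the GDNF receptor genes was called. All their differences were under the 2-fold threshold. For both Ret probe sets and for Gfra1 1450440_at the adjusted p of limma was also above 0.05. On the probe set of highest mean, Gfra1 was lower and Gfra2 higher in PICs. Ret, the signalling receptor, read 1290, 1057 and 803 on the PIC arrays, against 1510, 1211 and 1204 on the satellite arrays (1436359_at). The groups overlapped, with PIC replicate 3 lowest. Its log2 difference was -0.34 (95% interval -0.84 to 0.16; limma, adjusted p = 0.222), so without the block this probe set leaves room for 0.56-fold to 1.12-fold in PICs over satellite cells. The weaker Ret probe set 1421359_at read 74, 74 and 31 in PICs and 75, 106 and 70 in satellite cells, a difference of -0.57 (adjusted p = 0.259). Both were lower in PICs at each of the 3 replicate numbers, and limma with replicate number as a block gave adjusted p = 0.0763 and 0.104. Ret was thus above the low value level on all 6 arrays with both probe sets.

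Gfra1, the co-receptor of GDNF, read 1169, 1298 and 1161 on the PIC arrays, against 1447, 1701 and 1839 on the satellite arrays (1439015_at). The arrays did not overlap, and PICs were the lower group. The log2 difference was -0.45 (95% interval -0.78 to -0.13; limma, adjusted p = 0.0307), under the 2-fold threshold. The adjusted p was above 0.05 when any 1 array was left out other than satellite replicate 1, 0.0985 at most (without satellite replicate 2). The probe set 1450440_at read 191, 172 and 169 in PICs and 160, 251 and 235 in satellite cells, with overlap (difference -0.26, adjusted p = 0.319). A further Gfra1 probe set read 6 to 8 on all arrays.

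Gfra2, the co-receptor of neurturin, read 1675, 1752 and 1823 on the PIC arrays, against 842, 959 and 1213 on the satellite arrays (1433716_x_at). The groups did not overlap, and the difference of 0.82 (95% interval 0.43 to 1.20; limma, adjusted p = 0.00663) was under the 2-fold threshold. The probe set 1459847_x_at gave 223, 240 and 259 in PICs and 122, 127 and 171 in satellite cells, a difference of 0.80 (adjusted p = 0.0083). With any 1 array left out the adjusted p of limma was 0.0374 at most for 1459847_x_at and 0.0307 at most for 1433716_x_at. Without both arrays numbered 2 it was 0.119 for 1459847_x_at and 0.105 for 1433716_x_at. Both probe sets carry the suffix that marks possible hybridisation to other transcripts, as do 6.73% of the probe sets tested. The remaining 3 Gfra2 probe sets read between 4 and 11 on all arrays. The Gfra2 values thus rest on probe sets of the less specific kind alone.

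**Figure D3:**
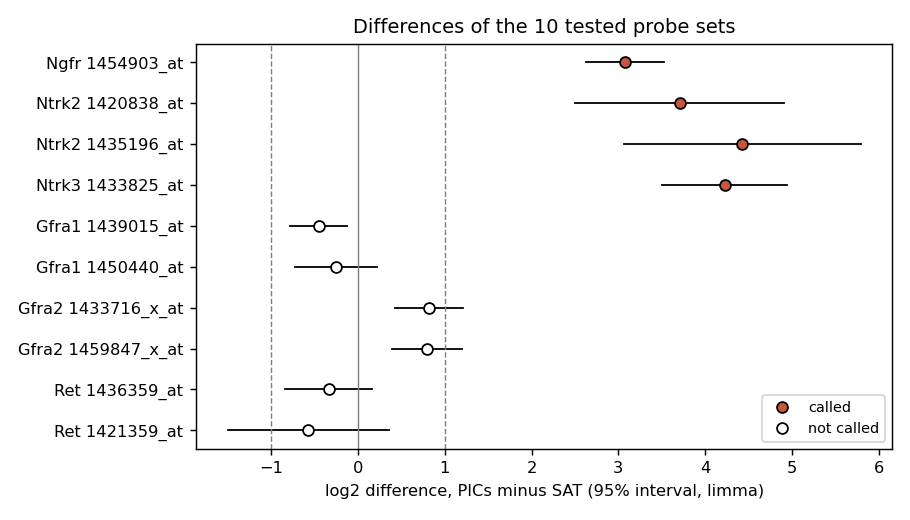
Log2 difference of PICs minus satellite cells for the 10 member probe sets that passed the filter, with 95% intervals from limma, filled where called, and dashed lines at the threshold of 1 in each direction. The intervals of Ngfr, Ntrk2 and Ntrk3 lie wholly above 1, and those of the 6 probe sets of Gfra1, Gfra2 and Ret reach inside the threshold.

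The ligand genes were at or near the low value level. Gdnf, the ligand of GFRA1 and RET, had 1 probe set, which read 4 on each of the 6 arrays. Bdnf, the ligand of TrkB, read 8, 9 and 9 on the PIC arrays, against 9, 21 and 19 on the satellite arrays (1422168_a_at). Only satellite replicates 2 and 3 exceeded 16. Its second probe set read 4, 6 and 7 in PICs and 7, 7 and 15 in satellite cells. Neither passed the filter, and in the fit without it the log2 differences of -0.82 and -0.71 had adjusted p = 0.249 and 0.394 (limma). Readings at this level set only an upper limit on the transcript, and do not show that it is missing.

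Other members of these families were mostly at the same level. The ligand genes Ntf5 (neurotrophin 4), Nrtn (neurturin), Artn (artemin) and Pspn (persephin) read between 4 and 11 on all arrays, and the co-receptor genes Gfra3 and Gfra4 read 4 and 5. Sort1, which encodes sortilin, a partner of p75 in binding neurotrophin precursors, read 349, 326 and 315 in PICs and 356, 341 and 294 in satellite cells. Its difference was 0.00 (95% interval -0.30 to 0.30). Its relative Sorcs2 differed by 0.62 (adjusted p = 0.0165), under the threshold.

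Of 62 further pathway genes listed, 53 had a probe set and 34 passed the filter by their probe set of highest mean. Limma called 8 of the 34 higher in PICs and 3 lower, against 16.6% higher and 13.0% lower of all genes that passed. With genes that did not pass counted in, these were 8 and 3 of 53, against 9.90% higher and 7.74% lower of 18193 genes (17.6% together). The median log2 difference was 0.00 over the 53 and over all genes, but 17 of the 53 were at or under 16 on all arrays, where differences are near 0. For the processing of neurotrophin precursors, directly or through another enzyme, 9 genes were listed and 6 passed the filter. Of these 6, 3 were called, each higher in PICs, against 16.6% higher of all genes that passed. Plat, tissue plasminogen activator, read 5092, 5817 and 7733 in PICs, against 509, 411 and 940 in satellite cells, a 10.5-fold difference (limma, adjusted p = 0.000495). The proprotein convertase genes Pcsk6 and Pcsk5 were 7.66-fold and 4.95-fold higher in PICs. Furin, a convertase of the same family, was 1.66-fold higher and not called (adjusted p = 0.0293), and Pcsk7 had a 95% interval of -0.39 to 0.39 for its log2 difference. Plg and Mmp7 read 4 on all arrays.

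Adaptors of Trk and RET were called in both directions, with 2 higher in PICs and 1 lower of 16 genes with a probe set, of which 10 passed the filter (18 were listed). Over all genes that passed, 16.6% were higher and 13.0% lower. Gab2, a docking protein, read 1421, 1435 and 1699 in PICs and 422, 453 and 674 in satellite cells, 3.00-fold apart. Shc1, an adaptor that binds activated receptors, was 2.21-fold higher in PICs. Sh2b2, an adaptor of receptor tyrosine kinases, read 10, 7 and 7 in PICs, under the low value level, and 25, 28 and 34 in satellite cells, at least 1.80-fold more in satellite cells. Plcg1, a phospholipase that binds activated Trk receptors, differed by -0.10 (95% interval -0.35 to 0.16).

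Of the genes whose products interact with p75, 6 of 8 listed had a probe set and passed the filter, and 1 was called, higher in PICs (16.6% of all genes that passed). Ndn, which encodes necdin and is an imprinted gene, read 28126, 31471 and 34260 in PICs, against 7667, 6979 and 11558 in satellite cells (3.66-fold; limma, adjusted p = 0.000825), and its 5 probe sets that passed were each called higher in PICs. Maged1, which encodes a further p75 partner, differed by 0.02 (95% interval -0.45 to 0.49). Of receptors and co-receptors, Ncam1, an adhesion molecule that can bind GDNF with GFRA1, read 570, 590 and 553 in PICs, against 2561, 2705 and 2560 in satellite cells. Its log2 difference was -2.19 (limma, adjusted p = 8.54e-05), and its 4 probe sets that passed were all called lower in PICs. Lingo1, known as a p75 co-receptor in neurons, read 63, 76 and 91 in PICs and 12, 13 and 18 in satellite cells, where 1 array exceeded 16 (difference 2.43). Among receptor modulators, the phosphatase gene Ptprf differed by -1.31. Lrig3 differed by 1.14 on its leading probe set, the only 1 of its 3 that was called. Etv5, a transcription factor induced by RET signalling in other tissues, differed by -0.76 (adjusted p = 0.00411) and was not called.

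**Figure D4:**
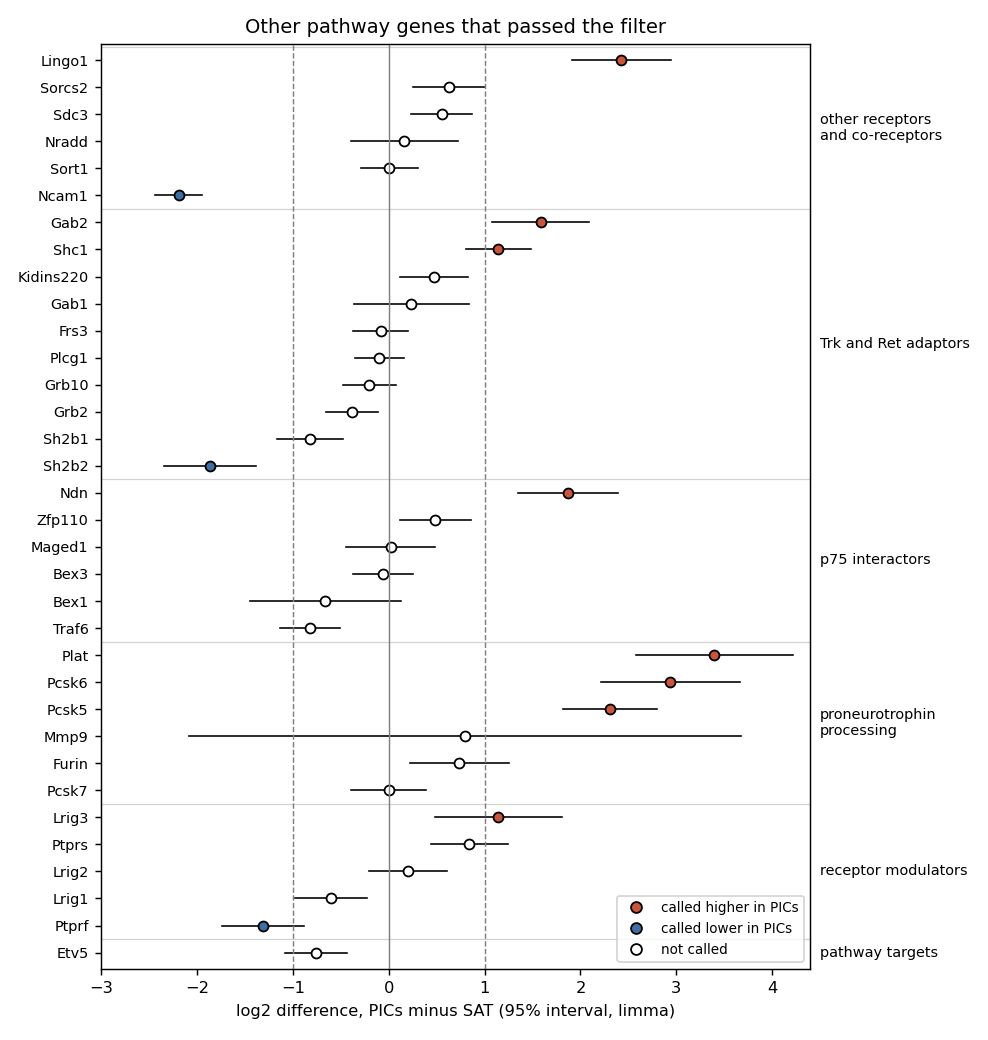
Log2 difference of PICs minus satellite cells, with 95% intervals from limma, for the 34 further pathway genes that passed the filter, grouped by role, with dashed lines at the threshold of 1 in each direction. Filled points mark the 8 genes called higher and the 3 called lower in PICs, and Plat, Pcsk6 and Lingo1 lie farthest right.

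Markers of other cells that carry these receptors were read on the same arrays. Of 12 Schwann and glial markers 9 had a probe set, of which 7 passed the filter. Limma called 2 higher in PICs (3 with the replicate number as a block) and 0 lower. Over all genes that passed, 16.6% were higher and 13.0% lower. The summed intensity of the 9 was 2119 to 13205 in PICs, against 3890 to 10816 in satellite cells. Without the myelin gene Mbp it was 616 to 1132 in PICs, against 332 to 700 in satellite cells. The median log2 difference of the 9 was 0.78, against 0.00 over all genes. These are not like sets, since 7339 of the 18193 genes did not pass the filter. Sox10, a transcription factor that defines the glial lineage, read 146, 78 and 43 in PICs and 60, 24 and 27 in satellite cells (difference 1.22, adjusted p = 0.107, or 0.00934 with the replicate block). The 2 called genes were Cdh19, at 108, 112 and 247 in PICs against 10, 9 and 8 in satellite cells, and S100b, at 147, 141 and 148 in PICs against 71, 26 and 32 in satellite cells. Of those not called, Erbb3 and Fabp7 differed by 0.78 and 0.97, and Mbp and Pmp2 by -0.29 and -0.59. Foxd3 and Gfap were at or under 16 on all arrays.

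Of 5 perineurial markers, genes of the sheath around nerve bundles, 4 were called higher in PICs. Over all 18193 genes, counting those that did not pass the filter, 9.90% were called higher and 7.74% lower. Lypd2 did not pass and read 14, 19 and 18 in PICs, against 3, 4 and 4 in satellite cells. The sum of the 5 markers was 5871 to 9268 in PICs and 452 to 762 in satellite cells. Cldn1, a tight junction gene, read 4221, 5118 and 7423 in PICs, against 109, 106 and 205 in satellite cells. Neuron markers were near the low value level, with 6 of 8 at or under 16 on all arrays, 0 called, and sums of 78 to 95 in PICs and 66 to 67 in satellite cells. Pericyte and smooth muscle markers summed to 9205 to 22432 in PICs and 31089 to 34616 in satellite cells, with 1 of 8 called higher and 2 lower. Without Acta2, the smooth muscle actin gene, the sums overlapped, at 6439 to 15521 in PICs and 10117 to 14050 in satellite cells. Endothelial markers summed to 1400 to 5139 in PICs and 2414 to 3620 in satellite cells, with 0 of 7 called. Leukocyte markers summed to 95 to 1039 in PICs and 116 to 1360 in satellite cells (3 of 7 passed the filter, 0 called). Tenocyte markers summed to 1758 to 4424 in PICs and 4100 to 6543 in satellite cells (3 of 4 passed the filter, 1 called lower). Muscle fibre markers summed to 4430 to 5241 in PICs and 3410 to 6623 in satellite cells. Of these 7, 6 passed the filter, 2 were called higher, or 3 with the replicate block, and 1 was called lower. The part of the Schwann, perineurial and other markers in the receptor differences was not tested.

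On all satellite arrays the called probe sets of Ngfr and Ntrk2 were above 16, while Ntrk3 exceeded it on replicate 3 only. Interstitial mesenchymal markers were read on the same arrays. The satellite mean was 11.9% of the PIC mean for Ngfr and 8.93% and 4.99% for the called Ntrk2 probe sets. For Ntrk3, with 1 satellite array above 16, it was at most 6.44%, counting lower readings as 16. Of the 7 interstitial mesenchymal markers, 5 were above 16 on all satellite arrays, and their share ran from 4.11% (Ebf2) to 24.1% (Dcn), with a median of 11.0%. By the same limit Osr1 was at most 4.34% and Clec3b at most 6.01%. On the satellite arrays all 5 measured markers were highest on replicate 3 and lowest on replicate 2. Both called Ntrk2 probe sets had that order, while Ngfr was highest on replicate 3 and lowest on replicate 1. Ntrk3 had the order of Ngfr, at 11, 14 and 24, with replicates 1 and 2 under 16. With 3 arrays few orders are possible, and their shares over all probe sets were not counted. The part of interstitial cells or their RNA in the satellite values was not tested.

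**Figure D5:**
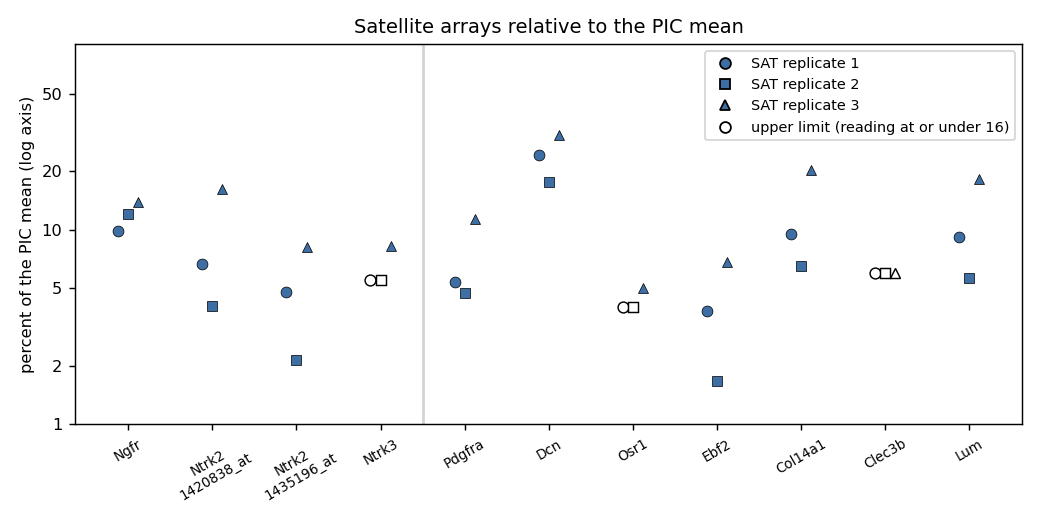
Intensity on each satellite array as a percent of the PIC mean, on a log axis, for the called member probe sets (left of the grey line) and the 7 interstitial mesenchymal markers (right), with 1 point per satellite array and open points for upper limits, where the reading was at or under 16. The means of Ngfr and Ntrk2, 4.99% to 11.9%, fall within the range of the 5 measured markers, 4.11% to 24.1%.

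The reverse share was also read for Ret and Gfra1, which were not called, and for the 7 myogenic markers, all called lower in PICs. The PIC mean was 80.3% and 71.3% of the satellite mean for the Ret probe sets and 72.7% and 82.4% for the Gfra1 probe sets that passed. For the 7 myogenic markers it was 1.55% (Chrna1) to 16.3% (Itga7), with a median of 3.23%. This difference in share follows from the calls. The part of myogenic cells or their RNA in the PIC values was not tested.

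The gene whose level over the 6 arrays was most like that of Ntrk3, the called member with the largest difference on its leading probe set, was Glb1l (Pearson r = 0.9999 on log2 values, 6 arrays). Csf1, a growth factor of macrophages, and Klf5, a transcription factor, came next (r = 0.9996 and 0.9994). Glb1l read 79, 90 and 95 in PICs, against 6, 7 and 11 in satellite cells. Ntrk3 takes that place with satellite readings mostly under 16. With log2(value + 16) its difference was 3.26, against 3.49 for Ntrk2 (1420838_at), and with array weights 4.41, against 4.60. With 3 arrays in each of 2 separate populations such values are common, since 1636 of 10848 genes exceeded an r of 0.95.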

How the data were processed

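The authors deposited GCRMA intensities (GCRMA per the submitters' processing notes, version not given), linear and rounded to whole numbers, for 45037 probe sets on 6 arrays. GCRMA corrects background by probe sequence, normalizes quantiles and pulls unexpressed probe sets to a floor, which narrows their spread. Values were taken to log2. Gene names are those of the platform annotation, with symbols updated by gene number (34741 of 34945 with 1 symbol matched). Those with 1 symbol and a log2 value above 4 on at least 3 arrays were tested with limma 3.58.1 in R 4.3.3 (lmFit and eBayes, two-sided), adjusted by Benjamini-Hochberg, after a test on simulated data. A gene is led by its probe set of highest log2 mean. If no array of a population exceeded 4, folds are bounds against 4. The number of arrays limits precision. Scan batches were not tested.

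Members and lists were chosen with earlier results of these data known. Named are all members, the other family ligands and receptors, up to 3 called genes per pathway list, sort and population checks, Schwann markers and the genes most like the leading member. Not called pathway genes and other list markers given with values were picked with their values in view, as were list sums without their highest gene. Some listed genes are not reported here.

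The labels share replicate numbers but state no shared preparation. Deviations from population means correlated at 0.617, 0.287 and 0.641 between arrays of equal number and at -0.588 to 0.169 otherwise (18433 probe sets). The pairing is read from the data alone, and a replicate block was an alternative.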

Additional observations from a re-analysis of the deposited data

How the results depend on the processing

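Under the alternatives tried, the 4 member probe sets called higher in PICs and the 0 called lower were found each time: with the replicate block, without the filter, with a stricter filter (log2 above 6), with all probe sets of the table tested, with log2(value + 16), with quantile normalization again, with median centring, with an intensity trend, with array weights, and without any array or pair of arrays. Of the members that passed the filter, 180 alternative values of single probe sets and 6 of gene means kept their direction and their call. For Gfra1, Gfra2 and Ret each of these stayed under the 2-fold threshold, so the call does not show changes in adjusted p. For Gfra1 1439015_at the adjusted p of limma ran from 0.00345 to 0.177. Sizes moved by over 1.5 times for Ntrk3 with log2(value + 16), to 3.26 from 4.22, and for Ntrk2 with array weights, to 4.60 from 3.71 (1420838_at) and to 5.64 from 4.43 (1435196_at), as well as for Ntrk2 without both arrays numbered 2 (3.12 and 3.65) or 3 (5.26 for 1435196_at). The causes were not tested. The replicate block changed no call of a member and gave 2881 probe sets higher in PICs and 2473 lower, against 2782 and 2353 without it. With any array or pair left out, 2066 to 2858 were higher and 1641 to 2459 lower. Averaging the probe sets of a gene gave 1786 genes higher and 1433 lower, fewer by construction because genes are counted, and 3 member genes higher. The further pathway genes called higher in PICs numbered 7 to 10 and those lower 2 to 3. Signal over background limits what can be said of Bdnf, Gdnf and the 22 member probe sets that did not pass the filter.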
